A study of Mus musculus with 12 samples.

Results

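The thyroid hormone receptor, transport and deiodination genes were 8 of the 55335 rows of the count table, taken by symbol: *Thra*, *Thrb*, *Rxra*, *Ncor1*, *Slc16a10*, *Ttr*, *Dio1* and *Dio2*. Each symbol stood on 1 row. The genes were followed in 12 libraries of mouse mRNA, 6 of bone-marrow-derived macrophages (BMDMs) and 6 of livers, with n = 3 for each genotype. The study deleted the thyrotropin (TSH) receptor gene *Tshr* in myeloid cells. Both groups were C57BL/6N mice with floxed *Tshr* alleles (Tshr f/f), and Tshr MKO mice also carried Lyz2-Cre, in which the *Lyz2* promoter drives Cre in macrophages, monocytes and neutrophils. All BMDMs, MKO and f/f alike, came from male littermates, aged 6 weeks by the labels and 6 to 8 weeks by the methods. They grew for 7 days in M-CSF at 10 ng/mL and then received TSH at 1 ng/mL for 24 h. No library without TSH was analysed. All livers came from male mice on a high-fat diet (HFD) for 9 weeks from 6 weeks of age, fasted for 8 h and given insulin at 1.5 U/kg for 5 min.

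The thyroid gland releases mainly thyroxine (T4), a prohormone, under the control of TSH. Target cells take T4 up through membrane transporters and convert it into triiodothyronine (T3) with the deiodinases, which are selenoproteins. T3 binds the nuclear receptors TRα and TRβ, which pair with a retinoid X receptor (RXR) on DNA and exchange corepressors such as NCOR1 for coactivators, and the liver is a classical target in which TRβ prevails.

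The deiodinases divided the tissues in opposite directions, with *Dio1* read in livers alone and *Dio2* in BMDMs alone, so their promoters are shown. The sequences are those of RefSeq on GRCm38.p6, 250 bases before to 50 after the start site, 5′ to 3′ on the minus strand. Capitals mark the cAMP response element TGACGTCA and the TATA box TATAAA.
Dio1 (chr4:107307119-107307418): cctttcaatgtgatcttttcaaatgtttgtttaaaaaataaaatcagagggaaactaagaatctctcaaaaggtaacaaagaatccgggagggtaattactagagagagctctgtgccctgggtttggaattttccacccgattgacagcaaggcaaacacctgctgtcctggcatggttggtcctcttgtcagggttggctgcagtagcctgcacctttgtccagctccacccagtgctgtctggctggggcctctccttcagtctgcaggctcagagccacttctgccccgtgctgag
Dio2 (chr12:90738989-90739288): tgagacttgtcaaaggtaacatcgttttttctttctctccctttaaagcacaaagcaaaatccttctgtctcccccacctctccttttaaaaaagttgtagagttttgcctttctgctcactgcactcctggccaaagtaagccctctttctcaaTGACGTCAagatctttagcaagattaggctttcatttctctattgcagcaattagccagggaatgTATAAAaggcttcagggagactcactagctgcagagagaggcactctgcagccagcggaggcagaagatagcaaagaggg
In *Dio2*, TGACGTCA began at position -95 and TATAAA at -30 from the RefSeq start, and neither was found in *Dio1*. Both strands were searched, and 1.79% of 32851 promoters of this length held TGACGTCA and 13.6% held TATAAA. The shorter TGACG, which lies within TGACGTCA on each strand, was in 20.8% of promoters and otherwise in neither of these. The receptor element AGGTCA (16.3% of promoters), its direct repeat with 4 bases between (0.0152%), the palindromic HNF1 site (0.00913%) and the PU.1 site GAGGAAGT (3.2%) were not in these windows. Of the *Dio1* window, 51 bases lay within the gene as GENCODE M21 draws it. The *Dio2* window began 550 bases upstream of the GENCODE gene and overlapped the antisense gene *Gm26512*. Promoter entries were matched for 6 of the 8 genes. AGGTCA was also found in 1 of the *Thrb* windows, at -184, and in 1 of the *Rxra* windows, at -87 and -48.

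The BMDM libraries held 33683981 to 40954211 counts and the liver libraries 28962878 to 40420513. *Tshr* itself had 0, 0 and 2 counts in f/f BMDMs, 0, 0 and 5 in MKO BMDMs and 0 in each liver, so the deletion could not be checked, and the floxed part, from exon 10 to the stop codon, need not change a count over the whole gene. The livers are named here by their GEO labels. A receptor table of the study lists counts of the livers labelled MKO under the control name and the reverse, so every liver direction between genotypes rests on the labels. *Lyz2*, whose promoter drives the Cre, had 818, 2173 and 1348 counts in livers labelled f/f. In livers labelled MKO it had 56, 4473 and 1236, and what lay behind this spread was not tested. The 8 hepatocyte markers summed to 79660–105800 CPM in livers (CPM is the count scaled to a common library total, here with TMM factors set within a tissue) and to at most 0.2132 CPM in BMDMs, where 6 to 8 of the 8 were at 0. The 8 macrophage markers summed to 15530–18050 CPM in f/f BMDMs, to 20560–30470 in MKO BMDMs and to 156.7–406 in livers. *Lyz2*, the most abundant of them, was higher in each MKO BMDM library (14528–22306 CPM) than in any f/f library (8769–9836 CPM). Taken 1 by 1, 4 of the 8 macrophage markers were higher and 4 lower in MKO BMDMs, with a median of 0.00499 on the log2 scale. The part of these markers in the genotype results was not tested. The normalization factor of f/f BMDM replicate 3 was 0.738, against 0.993–1.114 in the other BMDM libraries. In bulk RNA, fewer cells of a type and less RNA per cell cannot be told apart.

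**Figure D1:**
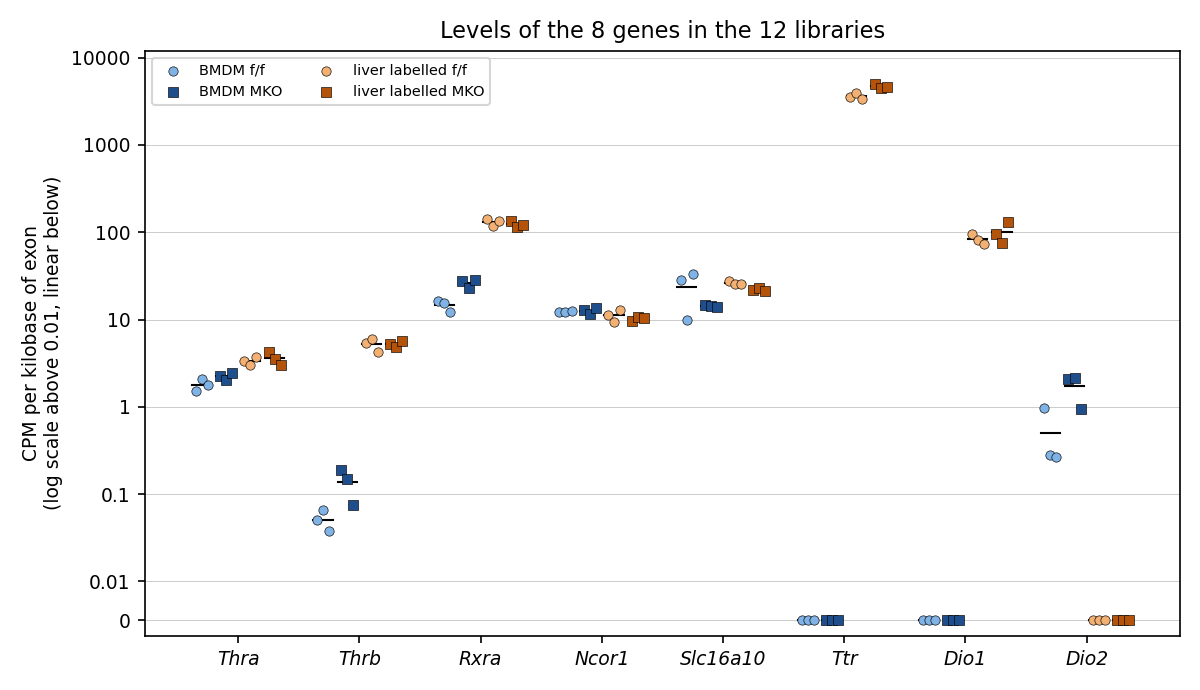
Levels of the 8 genes in CPM per kilobase of exon (counts scaled over all 12 libraries, log axis above 0.01 and linear below), 1 point per library with a bar at the mean of 3. *Ttr* and *Dio1* sat at 0 in all BMDM libraries and *Dio2* in all livers, and *Thrb* lay at 0.0382–0.187 in BMDMs and 4.26–6.02 in livers.

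Livers and BMDMs differed in 6 of the 8 genes at an adjusted p under 0.05 (edgeR quasi-likelihood, 6 against 6 libraries), where 77.8% of the 17246 genes tested did so. *Dio1*, *Ttr*, *Thrb*, *Rxra* and *Thra* were higher in livers and *Dio2* was lower, while *Slc16a10* and *Ncor1* did not pass. The groups of those 6 genes did not overlap, as in 60.3% of all genes tested (32.4% higher and 27.9% lower in livers). Tissue, culture, diet, TSH and insulin differed together between the tissues and cannot be told apart. Levels between tissues are given in CPM per kilobase of exon, scaled by TMM over 12 libraries. Without TMM factors the median gene moved from 0.04 to -0.85 on the log2 scale between tissues, and the genes called went from 6984 higher and 6429 lower in liver to 4254 and 9799.

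Among the receptors, *Thrb* (ENSMUSG00000021779, GRCm38 chromosome 14, 17660261–18038090, plus strand) encodes TRβ, the main TR of hepatocytes. Its level was 5.34, 6.02 and 4.26 CPM per kilobase in livers labelled f/f and 5.2, 4.82 and 5.66 in livers labelled MKO. In BMDMs it was 0.05, 0.0651 and 0.0382 in f/f and 0.187, 0.151 and 0.0752 in MKO libraries, from 10 to 72 counts each. All livers lay above all BMDMs, by 5.94 ± 0.24 (SE) on the log2 scale, or 61.3-fold (edgeR adjusted p = 3.68e-09).

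*Thra* (ENSMUSG00000058756, chromosome 11, 98740638–98769006, plus strand) encodes TRα, the receptor of most other tissues. In livers its level had a lowest, median and highest value of 2.98, 3.44 and 4.25 CPM per kilobase, and in BMDMs of 1.51, 2.06 and 2.45. The tissues did not overlap, and *Thra* was higher in liver by 0.79 ± 0.12 on the log2 scale (edgeR adjusted p = 0.000137) with TMM, although it stood at -0.11 with no scaling factors (adjusted p = 0.552). Exons of *Thra* share 263 bases (5.7% of its exon length) with *Nr1d1*, a circadian repressor gene on the other strand. The libraries were strand-specific, but the strand setting of the counting is not given in the sources used here. *Nr1d1* was also higher in livers than in BMDMs, by 5.37 ± 0.17 on the log2 scale (edgeR adjusted p = 1.09e-09), and its part in the *Thra* counts was not tested.

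The ratio of the receptors within a library needs no scaling. *Thrb* made up 60 ± 5.54% (SD, n = 6) of the *Thra* and *Thrb* reads per kilobase in livers and 4.31 ± 2.34% in BMDMs, a difference of 55.7 points (exact permutation test, two-sided, p = 0.00216, the smallest possible, adjusted p = 0.00866 over 12 tests). The livers ranged from 53.5 to 66.8% and the BMDMs from 2.11 to 7.62%. In reads per kilobase, *Thrb* thus exceeded *Thra* in all 6 livers and *Thra* exceeded *Thrb* in all 6 BMDM libraries.

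*Rxra* (ENSMUSG00000015846, chromosome 2, 27676440–27762957, plus strand) encodes RXRα, the partner of TRs and of several lipid-sensing receptors. Its lowest, median and highest levels were 113, 127 and 142 CPM per kilobase in livers and 12.2, 19.7 and 28.2 in BMDMs. It was higher in each liver than in any BMDM library, by 2.69 ± 0.12 on the log2 scale, or 6.47-fold (edgeR adjusted p = 7.49e-09). *Rxra* held 92.4 ± 0.54% (SD, n = 6) of the *Rxra* and *Rxrb* reads per kilobase in livers and 78.1 ± 2.34% in BMDMs (exact permutation test, two-sided, p = 0.00216, adjusted p = 0.00866). The related *Rxrg* was lower than both in each tissue, at a mean of 1.91 CPM per kilobase in livers and 0.0272 in BMDMs.

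*Ncor1* (ENSMUSG00000018501, chromosome 11, 62316426–62458541, minus strand) encodes a corepressor that unliganded TRs hold on DNA. It varied least of the genes over the BMDM libraries (coefficient of variation 5.71%), with a lowest, median and highest level of 9.43, 10.6 and 12.9 CPM per kilobase in livers and of 11.5, 12.4 and 13.6 in BMDMs. The tissues overlapped, and the difference of -0.22 ± 0.09 on the log2 scale had an edgeR adjusted p of 0.0512. That call depended on the setting, with an adjusted p of 0.0375 under RLE scaling, 0.00184 under upper quartile scaling, 0.0109 in DESeq2, 0.0128 with no filter on low counts and 0.0172 in MKO libraries alone. With no scaling factors it stood at -1.11 (adjusted p = 6.56e-06), and it was lower in liver under every setting run. Without f/f BMDM replicate 3, MKO BMDM replicate 2 or the liver labelled f/f replicate 3 it was called as well, with adjusted p-values of 0.0376, 0.0398 and 0.0181.

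**Figure D2:**
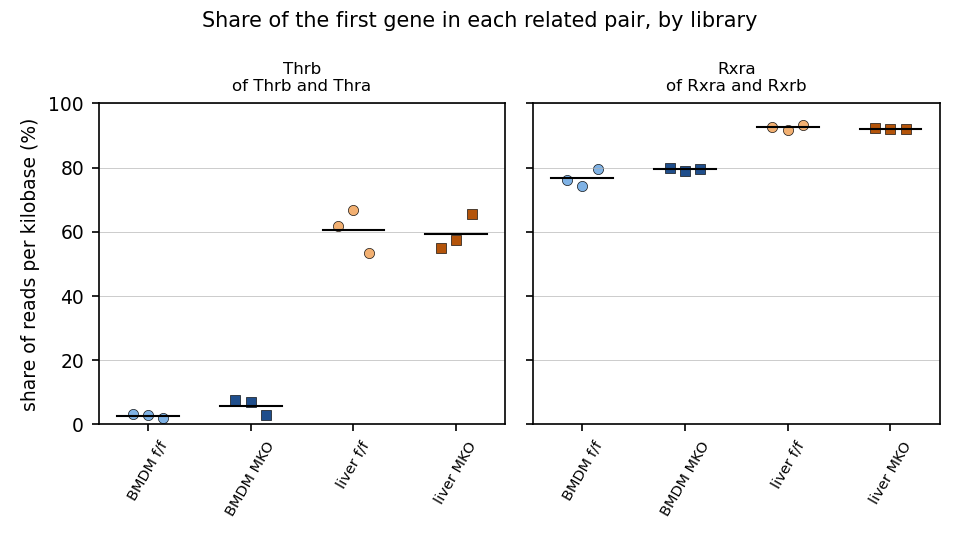
Share of the first-named gene in the reads per kilobase of a related pair, 1 point per library with a bar at the mean of 3, on an axis from 0 to 100%. *Thrb* held 2.11–7.62% in BMDMs and 53.5–66.8% in livers, and *Rxra* held 74.3–79.9% in BMDMs and 91.9–93.3% in livers.

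*Slc16a10* (ENSMUSG00000019838, chromosome 10, 40033532–40142258, minus strand) encodes MCT10, a transporter of aromatic amino acids and of thyroid hormones. Its lowest, median and highest levels were 21.1, 24.3 and 27.7 CPM per kilobase in livers and 9.88, 14.6 and 33 in BMDMs. The BMDMs spanned the livers, and the difference of 0.39 ± 0.23 on the log2 scale did not pass (edgeR adjusted p = 0.151). With no scaling factors it stood at -0.47 (adjusted p = 0.0375), and in MKO libraries alone at 0.60 (adjusted p = 0.000421). Without f/f BMDM replicate 2 it was 0.20 (adjusted p = 0.0445).

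*Ttr* (ENSMUSG00000061808, chromosome 18, 20665280–20674321, plus strand) encodes transthyretin, a plasma carrier of T4 and of retinol-binding protein that the liver secretes. It had no count in any BMDM library and 87519 to 162718 counts in livers. Taking 3 counts per BMDM library as the floor, a mean of 0.0601 CPM with scaling over 12 libraries against 4913 CPM in livers and a limit of counting error only, *Ttr* was at least 81800-fold higher in livers (edgeR adjusted p = 2.69e-09). It was the highest of the 8 genes in each liver, at a median of 4253 CPM per kilobase.

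*Dio1* (ENSMUSG00000034785, chromosome 4, 107291465–107307169, minus strand) encodes the type 1 deiodinase, which makes T3 and clears reverse T3 in liver and kidney. It had 0 counts in all 6 BMDM libraries and 4178, 4318 and 3229 counts in livers labelled f/f and 4840, 4516 and 5446 in livers labelled MKO. The level was at least 3020-fold higher in livers at the same floor (edgeR adjusted p = 3.37e-08).

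*Dio2* (ENSMUSG00000007682, chromosome 12, 90724552–90738438, minus strand) encodes the type 2 deiodinase, which makes T3 inside the cell and is known as a gene that cAMP induces. It had the reverse pattern, with 307, 97 and 55 counts in f/f BMDMs, 633, 639 and 307 in MKO BMDMs and 0 in all 6 livers. At a floor of 3 counts per liver, a mean of 0.123 CPM on the same scale, it was at least 52.8-fold lower in livers (edgeR adjusted p = 4.6e-05). The gene lies 646.1 kb from *Tshr* on the same chromosome. *Dio3*, whose enzyme inactivates T4 and T3, had 0 to 19 counts in BMDMs and 0 to 2 in livers and was not tested.

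By mean level per kilobase, the order in livers was *Ttr*, *Rxra*, *Dio1*, *Slc16a10*, *Ncor1*, *Thrb* and *Thra*, with *Dio2* at 0. Of these neighbours the ranges of *Rxra* and *Dio1* alone overlapped, *Dio1* reaching from 73.9 to 130 CPM per kilobase. The order in BMDMs was *Rxra*, *Slc16a10*, *Ncor1*, *Thra*, *Dio2* and *Thrb*, with *Ttr* and *Dio1* at 0. There *Rxra* overlapped with *Slc16a10*, *Slc16a10* with *Ncor1*, and *Thra* with *Dio2*, which ranged from 0.267 to 2.15 CPM per kilobase. The spread over 6 libraries was widest for *Dio2* (coefficient of variation 74.7%), *Thrb* (63.7%) and *Slc16a10* (48.7%) in BMDMs, and in livers no gene read there exceeded the 22.6% of *Dio1*.

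The comparison of MKO with f/f BMDMs asked whether loss of the TSH receptor under TSH changed these genes. No library of either tissue carried Lyz2-Cre without floxed *Tshr*, so loss of the receptor and the Cre itself cannot be told apart. In BMDMs the means of *Rxra*, *Thrb*, *Dio2* and *Thra* were higher in MKO, that of *Slc16a10* was lower, and *Ncor1* differed least, but none passed an adjusted p of 0.05. Enough reads for a test were found for 6 of the 8. In edgeR, 0 of the 15372 genes tested (0%) reached that limit (lowest adjusted p 0.218), 2756 had an unadjusted p under 0.05, and DESeq2 called 1216. At an unadjusted p under 0.05 stood 3 of the 6 genes, all higher in MKO, against 17.9% of genes tested (7.73% higher and 10.2% lower). The groups did not overlap in 2 of the 6, both higher in MKO, where 28.7% of all genes did not (14.8% higher and 14% lower). The methods name littermates with n = 3 per group, but no label ties a library to a mouse, so the spread that p-values measure is that between these libraries and may in part be technical.

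*Rxra* had 122, 116 and 90.2 CPM in f/f BMDMs and 204, 171 and 207 CPM in MKO BMDMs. All MKO libraries lay above all f/f libraries. The difference was 0.83 ± 0.17 on the log2 scale, or 1.77-fold (edgeR adjusted p = 0.218). DESeq2 gave an adjusted p of 0.000664 and an edgeR fit of all 12 libraries 0.0445. *Rxrb* also had its MKO values (32.9–38.7 CPM) above the f/f values (16.7–29.2 CPM), at 0.56 ± 0.23 (edgeR adjusted p = 0.269). The share of *Rxra* in the pair was 79.5 ± 0.43% in MKO and 76.7 ± 2.76% in f/f (SD, n = 3, exact permutation test, p = 0.3, smallest possible 0.1).

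*Thrb* had 0.502, 0.664 and 0.384 CPM in f/f BMDMs and 1.88, 1.52 and 0.747 CPM in MKO BMDMs. The groups did not overlap, although the highest f/f library and the lowest MKO library were close, with 29 and 31 counts. The difference was 1.40 ± 0.46 on the log2 scale, or 2.64-fold (edgeR adjusted p = 0.236). *Thrb* was the scarcest of the 6 genes tested, and its share of the receptor reads per kilobase in BMDMs stayed at or under 7.62% in each genotype.

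*Thra* had 9.41, 13.3 and 11.1 CPM in f/f BMDMs and 14.2, 12.7 and 15.2 CPM in MKO BMDMs, with overlap, at 0.31 ± 0.18 on the log2 scale (edgeR adjusted p = 0.388). The antisense neighbour *Nr1d1* had 2.56, 2.61 and 2 CPM in f/f and 11.7, 8.85 and 8.26 CPM in MKO BMDMs. Its groups stood well apart, at 2.00 ± 0.23 on the log2 scale (edgeR adjusted p = 0.218), and how far its reads enter those of *Thra* was not tested.

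*Dio2* had 7.7, 2.22 and 2.11 CPM in f/f BMDMs and 16.5, 17 and 7.39 CPM in MKO BMDMs. The groups overlapped, because f/f replicate 1 lay just above MKO replicate 3, each with 307 counts. The difference was 1.76 ± 0.61 on the log2 scale, or 3.39-fold (edgeR adjusted p = 0.244), and 4.48% of genes tested had a larger one. Without f/f replicate 1 it was 2.68 (adjusted p = 0.144). DESeq2 called it, with an adjusted p of 0.0485.

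*Slc16a10* had 281, 100 and 330 CPM in f/f BMDMs and 148, 144 and 137 CPM in MKO BMDMs. The MKO libraries lay close together, between f/f replicate 2 and the other two f/f libraries. The difference of -0.73 ± 0.42 on the log2 scale did not pass (edgeR adjusted p = 0.388). Without f/f replicate 2 it was -1.09 (edgeR adjusted p = 0.0537) and without f/f replicate 3 it was -0.42 (adjusted p = 0.707). The same f/f replicate 2 held the highest sum of 6 stellate cell and fibroblast markers, at 1795 CPM against 646.8 and 659.6 CPM in the other f/f libraries and 399.3–786.7 CPM in MKO libraries, and the part of these markers in the result was not tested.

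*Ncor1* had 210, 217 and 219 CPM in f/f BMDMs and 225, 201 and 233 CPM in MKO BMDMs, at 0.03 ± 0.14 on the log2 scale (edgeR adjusted p = 0.918). *Ttr* and *Dio1* had no count and were not tested.

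**Figure D3:**
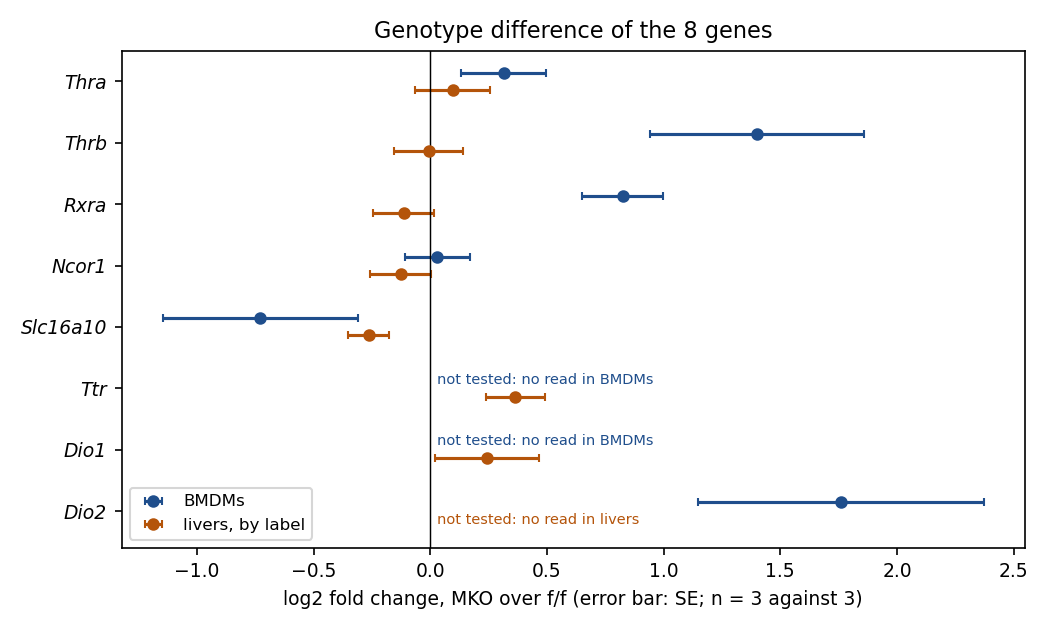
Log2 fold change of MKO over f/f for each gene (point) with its SE (bar), BMDMs in blue and livers, by label, in orange, n = 3 against 3. In BMDMs *Dio2* (1.76), *Thrb* (1.40) and *Rxra* (0.83) lay to the right of 0 and *Slc16a10* (-0.73) to the left, and in livers all 7 tested genes lay between -0.26 and 0.37.

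In livers, the genes differed little between the labelled genotypes. *Ttr* was higher and *Slc16a10* lower in livers labelled MKO, in each case without overlap, but neither passed the adjustment. Enough reads for a test were found for 7 of the 8, of which 2 stood at an unadjusted p under 0.05, where 10.5% of the 15062 genes tested did (5.27% higher and 5.18% lower). The groups of these 2 did not overlap, as in 17.3% of all genes tested (9.61% higher and 7.73% lower). In edgeR, 0 genes (0%) had an adjusted p under 0.05 (lowest 0.0634), 1574 had an unadjusted p under 0.05, and DESeq2 called 266, none of the 8 among them.

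*Ttr* had 3113, 3459 and 2902 CPM in livers labelled f/f and 4252, 3872 and 4081 CPM in livers labelled MKO. The lowest MKO value exceeded the highest f/f value. The difference was 0.37 ± 0.13 on the log2 scale, or 1.29-fold (edgeR adjusted p = 0.412). Of the other plasma carriers, *Alb* stood at 0.23 ± 0.19 and *Serpina7*, the gene of thyroxine-binding globulin, at -0.27 ± 0.35 on the log2 scale, with edgeR adjusted p-values of 0.723 and 0.833.

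*Slc16a10* had 152, 137 and 139 CPM in livers labelled f/f and 117, 123 and 117 CPM in livers labelled MKO. The groups did not overlap, and the difference was -0.26 ± 0.09 on the log2 scale (edgeR adjusted p = 0.402).

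*Dio1* had 141, 119 and 107.1 CPM in livers labelled f/f and 135, 107.5 and 193 CPM in livers labelled MKO, at 0.24 ± 0.22 on the log2 scale (edgeR adjusted p = 0.75). The difference rested on MKO replicate 3, and without it the value was -0.013 (edgeR adjusted p = 0.996). *Rxra* had 582, 468 and 545 CPM in f/f and 532, 446 and 495 CPM in MKO, at -0.11 ± 0.13, and *Ncor1* had 106.8, 88.6 and 122 and then 90.4, 98.9 and 101 CPM, at -0.13 ± 0.13. Their groups overlapped (edgeR adjusted p = 0.81 and 0.786).

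*Thra* had 11.4, 10.1 and 12.6 CPM in livers labelled f/f and 14.2, 11.8 and 10.3 CPM in livers labelled MKO, at 0.10 ± 0.16 on the log2 scale. *Thrb* had 29.6, 32.7 and 23.2 CPM in f/f and 28, 25.7 and 31.5 CPM in MKO, at -0.01 ± 0.15. Both groups overlapped, with edgeR adjusted p-values of 0.885 and 0.993. Neither direction was stable, *Thra* standing at -0.038 without MKO replicate 1 and *Thrb* at 0.10 without f/f replicate 2. The *Thrb* share of the receptors was 60.7 ± 6.71% in f/f and 59.4 ± 5.5% in MKO (SD, n = 3, exact permutation test, p = 0.9).

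Whether the genotype difference itself differed between tissues was tested as an interaction in the fit of 12 libraries. In edgeR, 1 of 17246 genes passed (0.0058%), *Gprc5c*, named for being the only one. At an unadjusted p under 0.05 stood 2 of the 5 genes read in both tissues, both lower, against 14.5% of genes tested (7.42% higher and 7.12% lower). *Rxra* stood at -0.94 ± 0.23 on the log2 scale, liver minus BMDM (edgeR adjusted p = 0.16), and *Thrb* at -1.38 ± 0.41 (adjusted p = 0.211). DESeq2 called both, with adjusted p-values of 0.000553 and 0.0386. *Slc16a10* stood at 0.47 ± 0.46 (edgeR adjusted p = 0.684), but at 0.84 with an adjusted p of 0.0344 without f/f BMDM replicate 2. *Thra* and *Ncor1* stood at -0.22 ± 0.25 and -0.15 ± 0.19 (edgeR adjusted p = 0.74 and 0.763). For *Dio1*, *Dio2* and *Ttr*, with 0 counts in a whole tissue, no such difference can be estimated.

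The pathway around these genes was described with 9 lists of 56 genes in all, 48 of them not among the 8. Of these 48, 33 were tested between genotypes in BMDMs, and 7 were higher and 4 lower in MKO at an unadjusted p under 0.05 (7.73% and 10.2% of all genes tested), with 0 at an adjusted p under 0.05. In livers 46 were tested, with 3 higher and 5 lower at an unadjusted p under 0.05 (5.27% and 5.18% of all genes tested), and 0 at the adjusted limit. Between tissues 46 were tested, of which 28 rose and 10 fell in livers at an adjusted p under 0.05 (40.5% and 37.3% of all genes tested).

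Of the receptor and RXR list, 4 of 5 genes were tested in BMDMs, and all 4 means were higher in MKO, 3 of them at an unadjusted p under 0.05 (7.73% of all genes tested were higher at that limit). *Thra*, *Thrb* and *Rxra* are among the 8 genes reported above, so *Rxrb* alone was added by this list. The median of the 4 was 0.69 on the log2 scale, against 0.01 over all genes. In livers the 5 genes had a median of -0.01, against -0.01 over all genes, and 0 of them passed an unadjusted p of 0.05. Between tissues all 5 were higher in livers at an adjusted p under 0.05 (40.5% of all genes tested). *Rxrg* was so most, by 6.20 ± 0.59 on the log2 scale (edgeR adjusted p = 2.82e-06).

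Of 11 membrane transporters, 5 were tested in BMDMs. All 5 means were lower in MKO, that of *Slc16a10*, reported above, among them. Their median was -0.55 on the log2 scale, against 0.01 over all genes, and 0 stood at an unadjusted p under 0.05. *Slc3a2*, the heavy chain that carries the amino acid transporters LAT1 and LAT2 to the membrane, was the nearest to it, at -0.78 ± 0.37 without overlap (edgeR adjusted p = 0.317). *Slc7a5*, the gene of LAT1, stood at -0.55 ± 0.26 (edgeR adjusted p = 0.318). Between tissues 6 transporters were higher in livers and 3 lower at an adjusted p under 0.05 (40.5% and 37.3% of all genes tested). The bile acid and organic anion carriers *Slco1b2* and *Slc10a1* had 0 counts in BMDMs and were at least 20400-fold and 11900-fold higher in livers. *Slc3a2*, *Slc7a5* and *Slc7a8* were lower in livers, by -2.80 ± 0.21, -2.72 ± 0.22 and -4.84 ± 0.38 on the log2 scale. In livers the sodium phosphate family member *Slc17a4* had 13.1, 22.4 and 18.8 CPM under f/f and 29.3, 27 and 24.3 CPM under MKO, at 0.57 ± 0.20 (edgeR adjusted p = 0.415). Its groups did not overlap.

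Of the 6 genes of the corepressor complex, 2 were higher in MKO BMDMs at an unadjusted p under 0.05 (7.73% of all genes tested), among them *Tbl1xr1*, part of the NCOR complex, at 0.53 ± 0.21 without overlap (edgeR adjusted p = 0.262). In livers *Hdac3*, the deacetylase of the complex, stood at 0.32 ± 0.13 (edgeR adjusted p = 0.476), and *Tbl1xr1* at -0.35 ± 0.22 (adjusted p = 0.627). Between tissues 1 gene of the complex was higher in livers and 2 lower at an adjusted p under 0.05 (40.5% and 37.3% of genes tested). The higher one was *Hdac3*, by 0.57 ± 0.09 on the log2 scale with overlap (edgeR adjusted p = 0.000187). Of the 6 means, 4 were lower in livers, and the median was -0.23 on the log2 scale, against 0.04 over all genes. Of the 8 coactivators, *Ncoa3* was higher in MKO BMDMs, at 0.70 ± 0.16 (edgeR adjusted p = 0.218), and *Med1* lower, at -0.34 ± 0.14 (adjusted p = 0.278), both without overlap. *Med1* and *Ep300* were nearest to a difference in livers, at -0.24 ± 0.11 and -0.14 ± 0.11 (edgeR adjusted p = 0.5 and 0.712). Between tissues 5 coactivators were lower in livers, as were 37.3% of all genes tested. Another 2 were higher, as were 40.5% of all genes, both counts taken with the adjusted limit of 0.05. The largest differences were those of *Ncoa3* (-2.22 ± 0.13) and the acetyltransferase *Ep300* (-1.52 ± 0.10), with edgeR adjusted p-values of 6.05e-08 and 1e-07.

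Deiodinases need the machinery that inserts selenocysteine. Of its 6 genes, 0 stood at an unadjusted p under 0.05 in BMDMs, where *Trnau1ap* and *Secisbp2* were both at -0.26 (edgeR adjusted p = 0.354 and 0.396). In livers the same pair lay on opposite sides, *Trnau1ap* at 0.30 ± 0.11 and *Secisbp2* at -0.34 ± 0.13 (edgeR adjusted p = 0.435 and 0.437), each without overlap. Between tissues 5 of the 6 rose in livers and 0 fell at an adjusted p under 0.05 (40.5% and 37.3% of all genes tested). *Sephs2* stood at 4.10 ± 0.18 and *Sepsecs* at 2.49 ± 0.11 on the log2 scale (edgeR adjusted p = 5.58e-09 and 7.56e-09). Of the 4 binding proteins 0 were tested in BMDMs, and in livers the cytosolic binder *Crym*, with 0 to 15 counts, stood at -1.56 ± 0.84 (edgeR adjusted p = 0.562).

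Of 3 enzymes that conjugate thyroid hormones, 2 were tested in BMDMs. *Sult1a1*, a sulfotransferase, had 10, 0 and 0 counts in f/f and 19, 20 and 48 in MKO BMDMs (edgeR adjusted p = 0.265), and *Ugt1a1* stood at 1.44 ± 1.33 on the log2 scale (adjusted p = 0.572). In livers all 3 were tested, *Sult1b1* at 0.78 ± 0.36 and *Ugt1a1* at 0.15 ± 0.19 (edgeR adjusted p = 0.506 and 0.832). *Sult1a1* was higher in livers than in BMDMs (edgeR adjusted p = 2.04e-08), and *Sult1b1* at least 404-fold.

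Of 10 genes known to be induced by T3 in liver, all were tested in livers, where 4 were lower in MKO by label at an unadjusted p under 0.05 and 0 higher (5.18% and 5.27% of all genes tested). Of the 10 means, 6 were lower and 4 higher in livers labelled MKO. *Cyp7a1* (0.69 ± 0.60) and *Thrsp* (0.30 ± 0.95) were among the higher ones, with overlap (edgeR adjusted p = 0.735 and 0.949). The median was -0.44 on the log2 scale, against -0.01 over all genes. The 6 neutrophil markers summed to 7.261–83.37 CPM in livers labelled f/f and 8.768–14.65 CPM in those labelled MKO, and their part in this was not tested. *Klf9*, a direct target of the TRs, had 184, 176 and 186 CPM under f/f and 147, 104 and 135 CPM under MKO. Its groups did not overlap, at -0.50 ± 0.14 (edgeR adjusted p = 0.336). *Fgf21*, a hepatic hormone that fasting also induces, had 25, 4.79 and 25.8 CPM under f/f and 3.88, 4.81 and 3.36 CPM under MKO, at -2.20 ± 0.60 (edgeR adjusted p = 0.346). Its f/f replicate 2 lay among the MKO libraries. *Thrsp* and *Cyp7a1* encode a lipogenic regulator and the rate-limiting enzyme of bile acid synthesis. They had 0 counts in BMDMs and were at least 1260-fold and 2780-fold higher in livers. Between tissues 7 of the 10 rose in livers and 0 fell at an adjusted p under 0.05 (40.5% and 37.3% of all genes tested).

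In BMDMs 7 of the 10 were tested, with 2 higher and 3 lower in MKO at an unadjusted p under 0.05 (7.73% and 10.2% of all genes tested). The median was -0.82 on the log2 scale, against 0.01 over all genes. The 2 higher were *Cpt1a*, at 0.81 ± 0.25 without overlap, and *Hr*, at 1.11 ± 0.44 with overlap (edgeR adjusted p = 0.23 and 0.269). *Gpd2*, mitochondrial glycerol-3-phosphate dehydrogenase, had 162, 94.9 and 292 CPM in f/f and 50.2, 51.3 and 83.4 CPM in MKO, at -1.57 ± 0.44 (edgeR adjusted p = 0.222). Its groups did not overlap. In livers, by label, *Cpt1a* was lower in MKO, at -0.52 ± 0.16 without overlap (edgeR adjusted p = 0.37). *Hr* stood there at -0.53 ± 0.55 with overlap (edgeR adjusted p = 0.787).

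**Figure D4:**
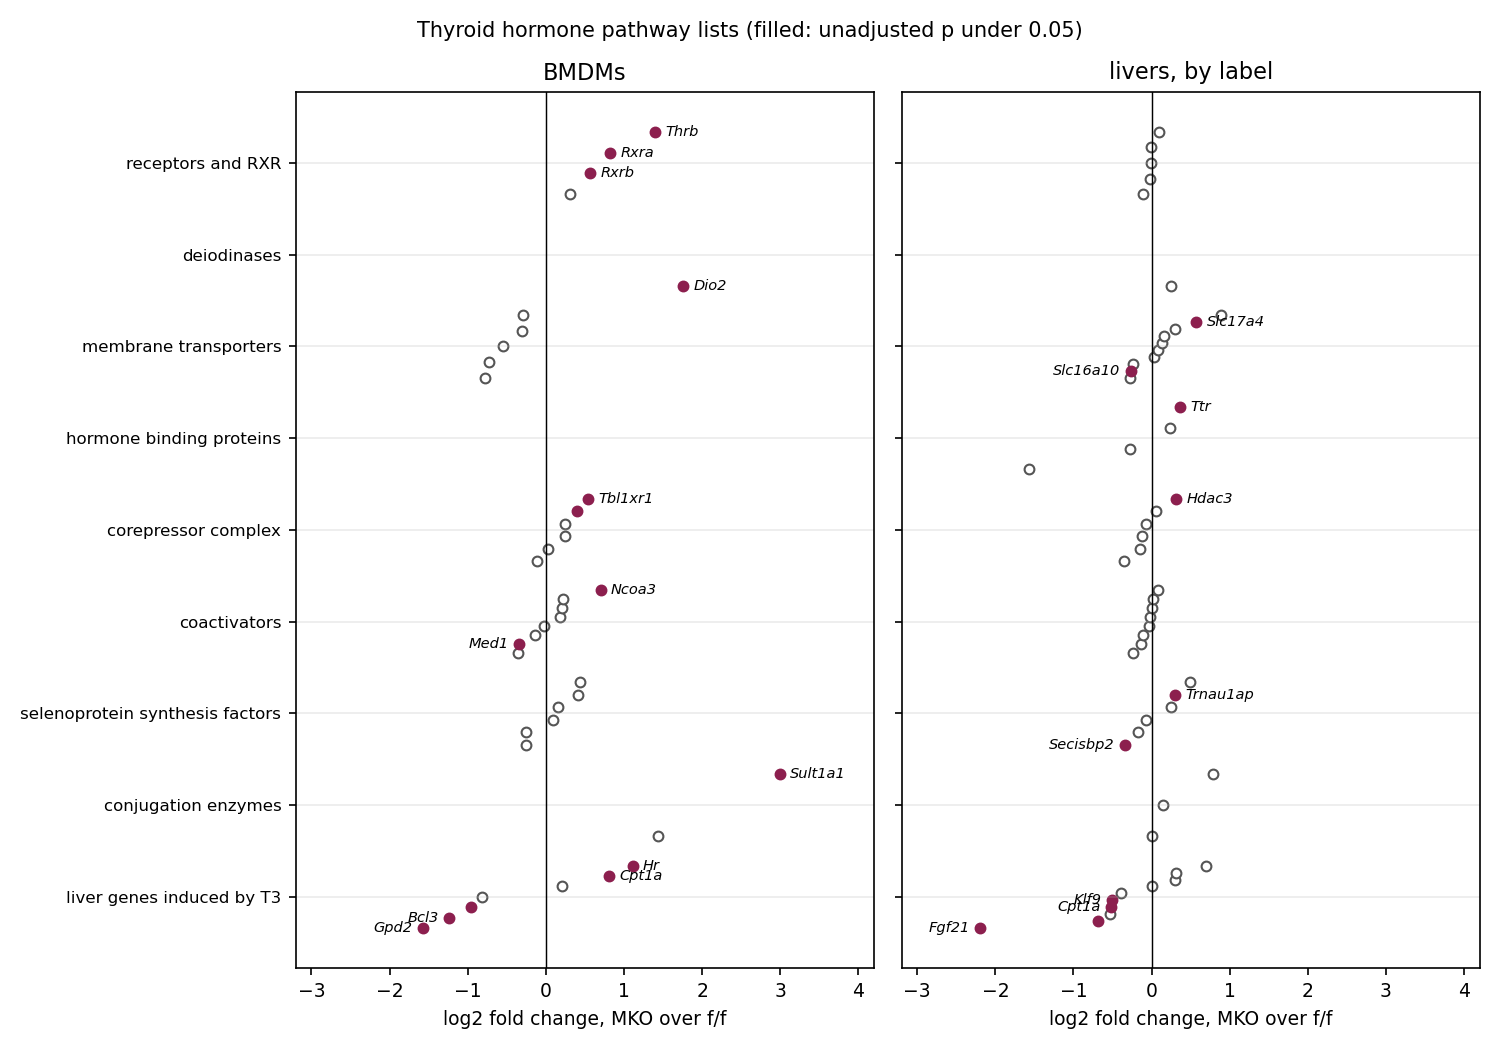
Log2 fold change of MKO over f/f for each tested gene of the 9 pathway lists, BMDMs on the left and livers, by label, on the right, with genes at an unadjusted p under 0.05 filled and most of these named. In BMDMs the receptor list lay above 0 and the transporter list, with no filled point, below 0. In livers the T3-induced list had 4 filled points, all below 0, while 4 of its 10 means lay above 0.

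The genes nearest to each of the 8 in profile over the 12 libraries were found by the root mean square distance of centred log2 CPM. The smallest distances were those of *Ncor1* to *Aggf1* (0.0915) and *Ccm2* (0.094), and 4692 of 17245 genes lay within 0.5 of it. *Rxra* was nearest to *Hs6st1* (0.12) and *Scarb1* (0.156), and *Thra* to *A130010J15Rik* (0.14) and *Dcaf5* (0.146). *Slc16a10* was nearest to *Etnk1* (0.162) and *Tor1aip2* (0.177). *Ttr* was nearest to *Serpina1d* (0.123) and *Fabp1* (0.136), and *Dio1* to *Mup16* (0.167) and *Acsm3* (0.168). For genes at 0 in all BMDMs this distance mostly follows the step between tissues, so liver genes as neighbours follow from the measure. *Thrb* was nearest to *Gm6652* (0.309) and *Plekha6* (0.33). *Dio2* had no gene within 0.5, its nearest being *Sez6l* (0.524) and *Npy* (0.531).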

How the data were processed

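Libraries of mRNA from BMDMs and livers, 6 of each, were strand-specific. The authors deposited raw counts per gene, in whole reads, as a table of 55335 rows. Per the paper, reads were trimmed with Skewer and checked with FastQC 0.11.2. The submitters' processing notes also name STAR, StringTie and mm10, with no role. The counting program and its strand setting are not given in the sources used here. The study compared groups with the MARS model of DEGseq, which models random sampling of reads and was not used here, where replicates were kept apart.

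Counts were tested with edgeR 4.0.16 (R 4.3.3): TMM, filterByExpr, robust quasi-likelihood fits per tissue, or of all 12 libraries between tissues, with Benjamini-Hochberg adjustment over all genes tested and 0.05 as the limit. The SE is the log2 fold change over the square root of F. Depth was 28962878 to 40954211 counts per library, and 3 counts in a library served as the floor. Exon lengths, positions and overlaps came from GENCODE M21 (GRCm38), which held 55154 of the 55335 identifiers. Promoters came from RefSeq. Shares of related genes were compared with exact permutation tests (scipy 1.17.1), adjusted over 12 tests. Tables and plots were made with matplotlib 3.10.9, numpy 2.4.6 and pandas 2.3.3 in Python 3.11.15.

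The 8 genes, the pathway lists and the marker lists were chosen with earlier results of these data known. Named beside the 8 were *Tshr*, *Lyz2* and *Nr1d1*, the 2 genes of each list with the lowest p between genotypes in each tissue, the 2 with the largest fold between tissues, and the 2 nearest profiles. Related receptors, carriers, *Dio3*, *Cpt1a* and *Hr* were named from those lists for comparison after their values were seen. Alternatives were RLE, upper quartile and no scaling factors, no filter or a mean of 50 counts, all 12 libraries in a fit, a single genotype, a replicate block, the first letter of the liver identifiers as a covariate, DESeq2 1.42.0, counts without division by length, and each library left out. Some genes of the lists and the shares that need them are not reported here. The fits were tested on simulated counts with 200 changed genes. The genotype fit in BMDMs called 6% of the 2-fold and 50% of the 4-fold changes. That in livers called 40% and 84%. Replicates of a group differed beyond sampling noise, so none was counted once with another.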

Additional observations from a re-analysis of the deposited data

How the results depend on the processing

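Between tissues, the number of genes called and the number of the 8 genes called (6 to 8) stayed within 1.5 times under every alternative run. Between genotypes the count depended on the tool. In BMDMs edgeR called 0 genes, but 150 (1 of the 8, *Rxra*) with all 12 libraries in a fit, 1 with the replicate block and 1216 (2 of the 8, *Rxra* and *Dio2*) in DESeq2, and 0 to 13 with 1 library left out (13 without f/f replicate 2 and 2 without f/f replicate 3). In livers it called 0 genes, 1 with no filter, 266 in DESeq2 and 0 to 7 with 1 library left out (7 without f/f replicate 2 and 2 without MKO replicate 3). For the difference between tissues it called 1 gene, 3 with upper quartile scaling, 0 with the replicate block, 801 (2 of the 8) in DESeq2, and 0 to 341 genes and 0 to 1 of the 8 with 1 library left out. The counts without f/f BMDM replicates 1, 2 and 3 were 62, 341 and 16, those without MKO BMDM replicates 2 and 3 were 2 and 4, and that without f/f liver replicate 3 or MKO liver replicate 2 or 3 was 0. The cause was not tested.

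Some directions turned. *Thrb* in livers moved from -0.01 to 0.000997 (upper quartile), 0.00696 (no filter), 0.00505 (all 12 libraries), 0.00278 (replicate block) and 0.11 (letter covariate), and ranged from -0.14 to 0.10 with 1 library left out. *Thra* in livers moved to -0.00283 with the letter covariate. Between tissues *Thra* moved from 0.79 to -0.11 and *Slc16a10* from 0.39 to -0.47 without scaling factors. With 1 library left out, *Ncor1* in BMDMs ranged from -0.0152 to 0.0919, *Thra* in livers from -0.0384 to 0.199 and *Dio1* in livers from -0.013 to 0.409. The share difference of MKO minus f/f ranged from -4.92 to 1.73 points for *Thrb* in livers. Dividing by length changed no call of a share.

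Replicate numbers were not taken to pair the samples. Deviations of same-numbered libraries correlated at 0.0126–0.102 in BMDMs and -0.0562 to 0.217 in livers. Those of differently numbered libraries correlated at -0.191 to 0.153 in BMDMs and -0.291 to 0.281 in livers. With 3 libraries per group these values cannot exclude a pairing. The replicate block changed no call of the 8 genes. A p that misses the limit does not show that genotypes are alike.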
